A study of Mus musculus with 8 samples.

Results

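The respiratory chain of mouse bone marrow macrophages was followed through 101 genes: every gene whose symbol begins with Ndufa, Ndufb, Ndufc, Ndufs, Ndufv, Uqcr, Cox4 to Cox8, Atp5 or mt- and that was present in both deposited count tables, leaving out mitochondrial tRNA and rRNA genes and pseudogenes. They were picked from 47643 genes in the macrophage table and 52458 in the plasma cell table. Of these members 88 lie on nuclear chromosomes and 13 on the mitochondrial genome. The mitochondrial genome holds 7 members of complex I, 1 of complex III, 3 of complex IV and 2 of complex V. The nuclear members comprise 44 of complex I, 8 of which are Ndufaf assembly factors rather than subunits, 8 of complex III, 20 of complex IV and 16 of complex V. Among the nuclear members of complex IV, 8 are tissue-restricted or inducible isoforms.

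Cells of GFP-marked Vk*MYC myeloma, a tumour of plasma cells that is driven by a MYC transgene and can be passed between mice, had been placed in the tibia of wild-type B6 mice. The macrophages of these tumours (TAM, tumour-associated macrophages) were taken by a gate of high F4/80 and low CD11b. They were split into GFP-positive cells in contact with myeloma (TAM-IC, n = 2) and GFP-negative cells without contact (TAM-NIC, n = 2), and set against bone marrow macrophages of naive, tumour-free wild-type B6 mice (n = 2). A further 2 samples are labelled only as wild-type B6 plasma cells, and the labels do not say whether either of them is myeloma. GFP on a macrophage comes from the tumour, since the host cells carry no GFP, and the gate cannot tell attached or engulfed myeloma material from contact. No age is given. The labels number the samples of each TAM group as mouse 1 and mouse 2, but do not say how many mice gave the naive or plasma cell samples, so the spread of those may be technical.

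The respiratory chain passes electrons from NADH through complex I, and from ubiquinol through complexes III and IV, to oxygen, and the proton gradient that builds up drives ATP synthase, complex V. Its complexes are mosaics: a small set of catalytic and membrane subunits is encoded by the mitochondrial genome and transcribed inside the organelle by a dedicated polymerase, while the remaining subunits are nuclear genes whose products are imported. In macrophages the balance between this pathway and glycolysis is known to shift with activation.

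Libraries held 28887725 to 46873056 counts in macrophages, and 81792139 and 38343783 in plasma cells. One library stood apart. Immunoglobulin genes took 9.13% of counts in replicate 2 of TAM-NIC, and 0.166% to 0.632% in the other 5 macrophage libraries. The 8 plasma cell markers summed to 29138 CPM (counts scaled to a common library total) there and to 834 to 2663 CPM elsewhere. Across genes, log2 CPM of the 2 replicates correlated at 0.967 in TAM-IC, 0.879 in TAM-NIC and 0.97 in naive macrophages. All 10 resident macrophage markers were detected in every library, and summed to 4019 and 5948 CPM in TAM-IC, 12831 and 10461 in TAM-NIC, and 18288 and 9335 in naive macrophages (replicates 1 and 2, here and below). The 8 neutrophil markers summed to 50190 and 28107 CPM, 9126 and 17702 CPM, and 47507 and 74019 CPM in the same groups. In bulk RNA a change in cell mixture and a change in RNA per cell cannot be told apart. Replicate 2 of TAM-IC was male by its Y-linked transcripts (Ddx3y at 88.4 CPM) and the other 5 macrophage libraries female (Xist at 17.5 to 53.8 CPM, against 0 in the male library), so the libraries labelled mouse 2 in the TAM groups did not come from the same animal.

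Some members could not be measured, and sequence shared with other genes marked most of them. The mouse nuclear genome carries a near-perfect copy of part of the mitochondrial genome, annotated as a row of pseudogenes on the minus strand of chromosome 1. Of all 50-base windows of a member's principal transcript, the share also present in another annotated gene elsewhere was 100% for mt-Co2, 99.9% for mt-Co3, 99.5% for mt-Atp6, 98.8% for mt-Nd4l and 98.0% for mt-Nd3. These genes encode 2 subunits of cytochrome oxidase, the a subunit of ATP synthase and 2 small membrane subunits of complex I. The first 4 of them had 0 counts in all 8 libraries, and mt-Nd3 had 0 to 4 counts in the macrophage libraries. By counting error alone a count of 0 allows up to 3 counts a library. That limit bounds the reads assigned to the gene and not the level of its RNA. The pseudogenes of that row, Gm29216, Gm28661, Gm10925, Gm28437, Gm28438, Gm10222 and Gm28439, held 0 to 31 counts each. mt-Atp8 also had 0 counts in every library, yet shared 0% of its windows with an annotated gene: by the offset of the neighbouring copies it corresponds to chr1:24614609-24614812, of which 161 bases lie outside any gene of the row, past the end of Gm10925, and 43 bases lie within Gm10925, fewer than fill a 50-base window. The rule by which the authors counted reads with several matches is not stated in any source used, and its part in these zeros was not tested.

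The first 60 bases of mt-Co3 (GRCm38, chrM:8607-8666, plus strand), the first 60 of mt-Nd3 (chrM:9459-9518, plus strand) and 60 bases of mt-Co1 around the point where the copy begins (chrM:6381-6440, plus strand) are printed with their chromosome 1 counterparts in Gm28437 (chr1:24613912-24613971), Gm28438 (chr1:24613060-24613119) and Gm29216 (chr1:24616138-24616197), all on the minus strand. They show how alike gene and copy are. Capitals mark the bases that differ.
mt-Co3: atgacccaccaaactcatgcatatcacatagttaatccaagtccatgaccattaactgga
Gm28437: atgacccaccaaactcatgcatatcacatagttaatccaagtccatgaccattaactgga
mt-Nd3: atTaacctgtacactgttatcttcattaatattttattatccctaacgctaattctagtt
Gm28438: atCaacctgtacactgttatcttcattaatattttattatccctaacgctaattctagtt
mt-Co1: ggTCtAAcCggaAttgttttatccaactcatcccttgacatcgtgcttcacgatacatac
Gm29216: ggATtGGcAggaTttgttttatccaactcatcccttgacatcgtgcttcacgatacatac
The mt-Co3 stretch is identical to its copy. The mt-Nd3 stretch differs by T3C, counted from the gene's first base. The mt-Co1 stretch differs by T1056A, C1057T, A1059G, A1060G, C1062A and A1066T and is identical from there on.

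Measured mitochondrial members shared less. mt-Nd1, mt-Nd6 and mt-Cytb had 0% of windows in another gene, mt-Nd5 7.6%, mt-Nd2 8.2%, mt-Co1 51.1% and mt-Nd4 62.2%. Levels of mt-Co1 and mt-Nd4 are therefore uncertain and sums over mitochondrial members are partial.

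Nuclear members with many shared windows were also at low levels in both tables. All windows of Atp5g2, a gene for the c subunit that forms the rotor ring of ATP synthase, were shared, and it had 11 and 5 counts in TAM-IC, 13 and 9 in TAM-NIC and 26 and 15 in naive macrophages. Atp5l, for a subunit of the membrane part of the synthase, shared 68.5% of windows and had a mean of 0.573 CPM per kb of transcript. Among nuclear subunit genes, isoforms and associated factors left out, the 10 that shared 25% or more had a median of 7.17 CPM per kb (0.573 to 31.3) in macrophages, and the other 61 a median of 54.3 (0.359 to 502). In plasma cells these medians were 7.48 and 30.2 CPM per kb. The lowest of the 61 was Atp5g1, another c subunit gene. At least 1 other gene is annotated over the locus of 39 nuclear members, and the library kit does not mark the strand, so reads from such partners cannot be told apart.

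**Figure D1:**
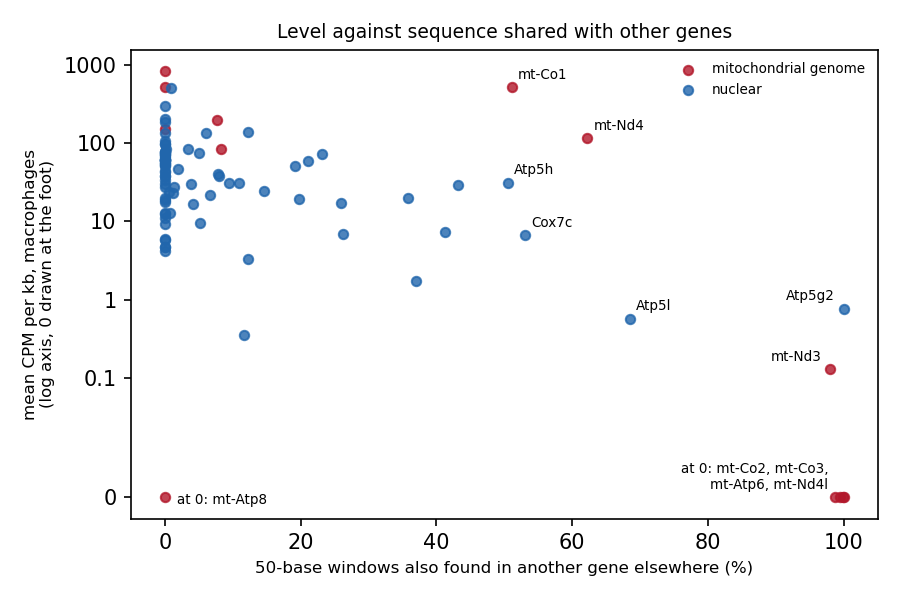
Mean CPM per kb of principal transcript over the 6 macrophage libraries (log axis, values of 0 at the foot) against the share of 50-base windows that another annotated gene elsewhere also holds, for each mitochondrial genome (red) and nuclear (blue) member other than isoforms. The members above 90% lie under 1 CPM per kb, whereas mt-Co1 and mt-Nd4, at 51.1% and 62.2%, lie at 516 and 115 CPM per kb.

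After a filter on low counts, 90 members entered the fit, 83 nuclear and 7 mitochondrial, among 15522 genes. The members not tested were Cox7a1, Cox7b2, Cox8b, Cox8c, Ndufa4l2, mt-Atp6, mt-Atp8, mt-Co2, mt-Co3, mt-Nd3 and mt-Nd4l. With edgeR's quasi-likelihood test and an adjusted p under 0.05 over all genes, 0 members were called in any of the 3 comparisons. The share of all genes called was 0% for TAM-IC over TAM-NIC, 0.219% for TAM-IC over naive and 0% for TAM-NIC over naive. At an unadjusted p under 0.05 there were 11, 17 and 9 members in that order, and 17.1%, 14.6% and 15.2% of all genes passed that limit. DESeq2 called 8, 3 and 1 of the 90 tested members, beside 10.1%, 7.84% and 8.03% of all genes, and limma-voom called 0 genes in each comparison. All log2 fold changes below are from edgeR unless DESeq2 is named. Their standard errors come from the quasi-likelihood model fitted to all macrophage libraries together, with 2 libraries per group. These standard errors are not the spread between the 2 libraries of a group.

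The mitochondrial genome members separated the TAM groups. All 7 measured genes were lower in both libraries of TAM-IC than in either library of TAM-NIC, with log2 fold changes of -1.55 to -2.27 and a median of -1.80, beside a median over all genes of 0.00. For 22.1% of all genes both libraries of TAM-IC lay below both of TAM-NIC. None of the 7 passed edgeR's test, with adjusted p of 0.178 to 0.207, while all 7 passed in DESeq2.

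mt-Cytb, the cytochrome b of complex III and the most abundant measured member per kb (GRCm38 chrM:14145-15288), stood at 357 and 462 CPM in TAM-IC, 1088 and 2378 CPM in TAM-NIC, and 853 and 553 CPM in naive macrophages. Its log2 fold change was -2.05 ± 0.51 (SE) for TAM-IC over TAM-NIC (adjusted p = 0.185). The 3 groups did not overlap: TAM-IC was lowest and TAM-NIC highest.

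mt-Co1, the catalytic subunit of cytochrome oxidase (chrM:5328-6872), had 348 and 337 CPM in TAM-IC, 764 and 2174 CPM in TAM-NIC and 683 and 478 CPM in naive macrophages. The order of the groups was that of mt-Cytb, and the log2 fold change between the TAM groups was -2.07 ± 0.55 (SE, adjusted p = 0.196).

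The complex I genes of the mitochondrial genome encode membrane subunits of its proton-pumping arm. mt-Nd1 (chrM:2751-3707), which lies next to the ribosomal RNA genes and so near the start of the main transcript, had 236 and 337 CPM in TAM-IC, 695 and 1122 CPM in TAM-NIC, and 392 and 242 CPM in naive macrophages. TAM-IC and naive overlapped for this gene, with a log2 fold change of 0.02 ± 0.42 (SE, adjusted p = 0.989). TAM-NIC stood above both, at 1.65 ± 0.43 over naive (adjusted p = 0.229), the only member that DESeq2 called in that comparison.

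mt-Nd5 (chrM:11742-13565), farther along the same transcript, had 108 and 143 CPM in TAM-IC, 245 and 998 CPM in TAM-NIC and 385 and 292 CPM in naive macrophages. Here TAM-IC lay below naive, with a log2 fold change of -1.27 ± 0.64 (SE, adjusted p = 0.408), and replicate 1 of TAM-NIC lay below both naive libraries. mt-Nd2 had 34.4 and 59.4 CPM in TAM-IC, 97.0 and 184 CPM in TAM-NIC and 90.4 and 54.7 CPM in naive macrophages. mt-Nd4 had 64.4 and 89.9 CPM in TAM-IC, 185 and 366 CPM in TAM-NIC and 150 and 98.9 CPM in naive macrophages. In both genes TAM-IC was lowest on average and TAM-NIC highest. mt-Nd6, the only measured mitochondrial member on the minus strand, had 31.8 and 45.6 CPM in TAM-IC, 93.9 and 176 CPM in TAM-NIC and 76.6 and 49.2 CPM in naive macrophages. mt-Nd5 overlaps it on the other strand. The library kit does not mark the strand, so plus-strand RNA over this locus cannot be told apart from mt-Nd6 RNA.

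The mix of mitochondrial transcripts differed between libraries as well as their sum. The ratio of mt-Nd1 to mt-Nd5 counts was 2.19 and 2.36 in TAM-IC, 2.84 and 1.12 in TAM-NIC and 1.02 and 0.829 in naive macrophages. mt-Nd5 made up 9.15% and 9.68% of mitochondrial member counts in TAM-IC, 7.73% and 13.5% in TAM-NIC and 14.7% and 16.5% in naive macrophages. The naive libraries had the lowest ratios and the highest mt-Nd5 shares, and replicate 2 of TAM-NIC was nearer to them than to its own replicate.

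**Figure D2:**
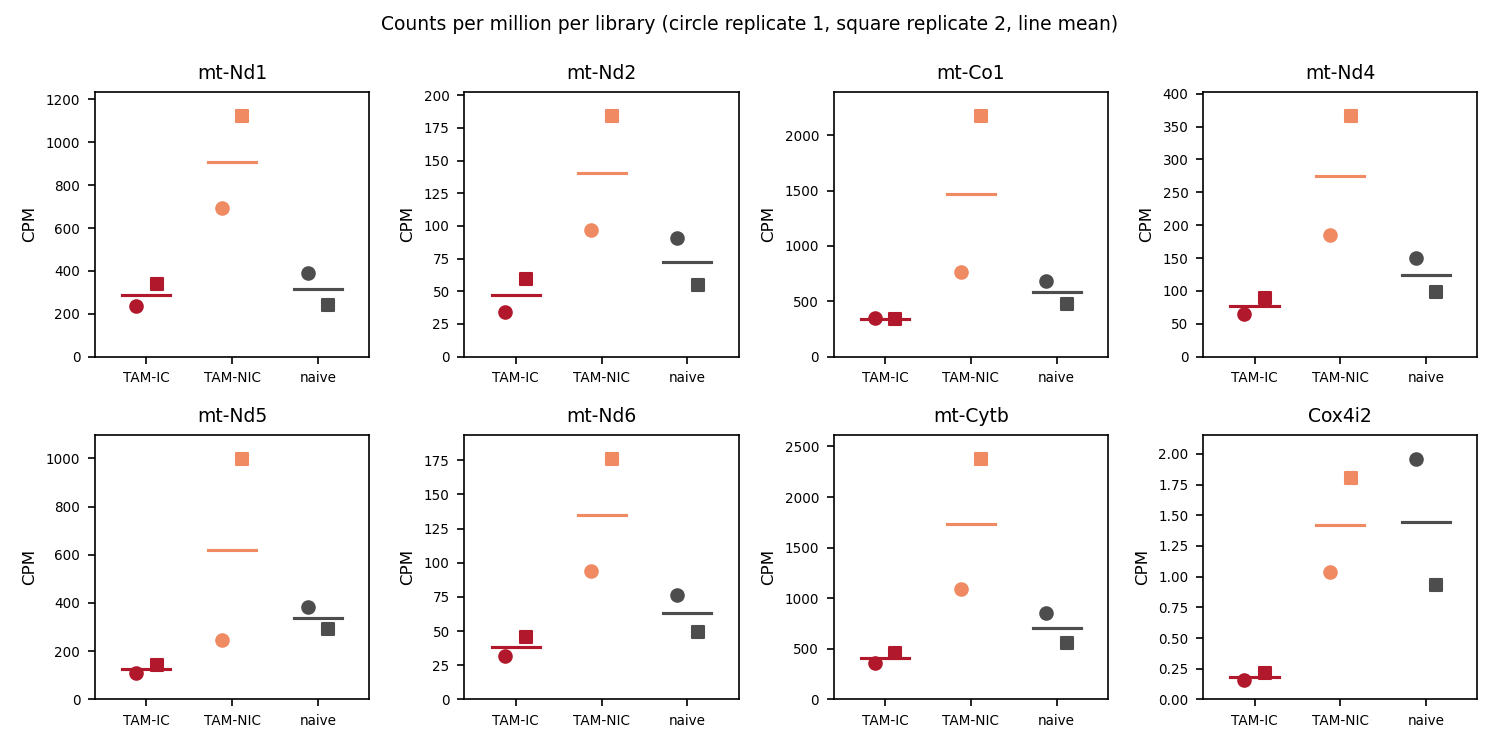
CPM of the 7 measured mitochondrial genome members and of the nuclear isoform gene Cox4i2 in each macrophage library, by group, with group means as lines. The squares of TAM-NIC, replicate 2, are the highest points for the 7 mitochondrial genes, and both points of TAM-IC lie below both of TAM-NIC in every panel.

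Over naive macrophages the medians of the 2 TAM groups had opposite signs. For TAM-IC over naive 6 of 7 log2 fold changes were negative, with a median of -0.54, and 3 genes, mt-Nd5, mt-Cytb and mt-Co1, lay below both naive libraries. For TAM-NIC over naive 7 of 7 were positive, with a median of 1.28, and 6 genes lay above both naive libraries. All libraries of the TAM group lay below those of naive for 29.1% of all genes in the first of these comparisons, and above them for 22.0% in the second. For TAM-IC over naive 0 of the 7 had an unadjusted p under 0.05, beside 14.6% of all genes, and the smallest adjusted p was 0.408. For TAM-NIC over naive 5 of the 7 did, beside 15.2% of all genes, and the smallest adjusted p was 0.229. The 3 comparisons share libraries, so their values are set side by side and not combined.

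**Figure D3:**
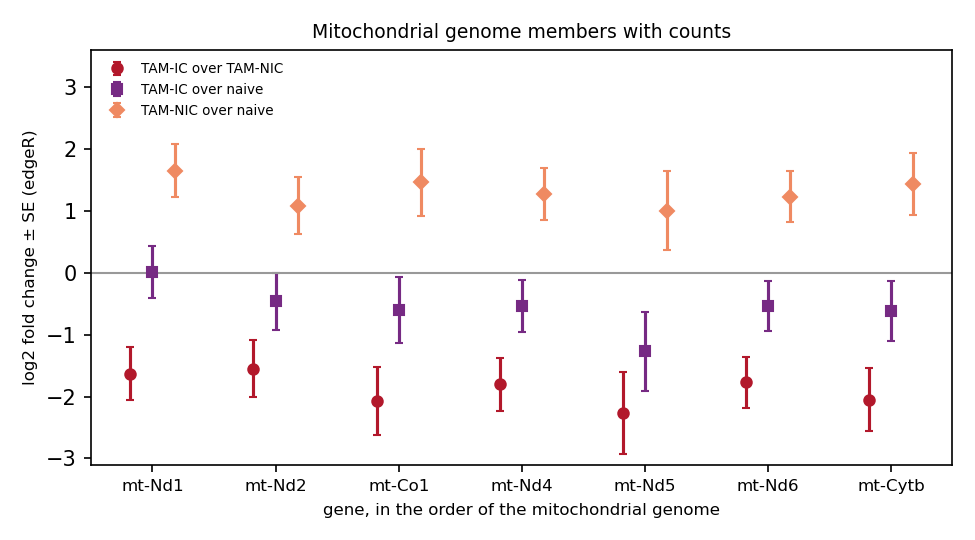
edgeR log2 fold change with standard error for the 7 measured mitochondrial genome members, in the order in which they lie on the mitochondrial genome, for the 3 comparisons. TAM-IC over TAM-NIC runs from -2.27 to -1.55, TAM-NIC over naive from 1.00 to 1.65, and TAM-IC over naive from -1.27 at mt-Nd5 to 0.02 at mt-Nd1.

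Summed over the 13 mitochondrial members, counts made up 0.118% and 0.147% of the library in TAM-IC, 0.317% and 0.74% in TAM-NIC and 0.263% and 0.177% in naive macrophages. The log2 difference was -1.88 for TAM-IC over TAM-NIC, -0.71 over naive, and 1.17 for TAM-NIC over naive. In each case the 2 groups did not overlap, and the two-sided exact permutation p was 0.333, the smallest that 2 against 2 libraries can give. Mitochondrial ribosomal RNA, which is not among the members, had 242 and 320 CPM in TAM-IC, 364 and 1364 CPM in TAM-NIC and 424 and 322 CPM in naive macrophages.

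Nuclear members kept no such distance. Their summed CPM was 5559 and 5365 in TAM-IC, 5514 and 4424 in TAM-NIC, and 4683 and 4988 in naive macrophages. TAM-IC and TAM-NIC overlapped (log2 difference 0.15, exact permutation p = 0.667), and TAM-IC lay above naive by 0.18 (p = 0.333). The ratio of summed mitochondrial to summed nuclear counts, which does not depend on the library total, was 0.212 and 0.275 in TAM-IC, 0.575 and 1.67 in TAM-NIC and 0.562 and 0.354 in naive macrophages. Its log2 difference was -2.02 between the TAM groups, -0.89 for TAM-IC over naive and 1.14 for TAM-NIC over naive, each with an exact permutation p of 0.333. Over these 3 sums, 12 tests were made, including all 4 TAM libraries against naive (exact permutation p of 0.400 to 1.00, smallest possible 0.133), and the lowest adjusted p was 0.571.

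Replicate 2 of TAM-NIC, the library with 9.13% immunoglobulin counts, had the highest mitochondrial share and the lowest nuclear sum. Without it the log2 difference of the mitochondrial share was -1.26 for TAM-IC over TAM-NIC and 0.56 for TAM-NIC over naive, and that of the mitochondrial to nuclear ratio was -1.25 and 0.36. The part of plasma cell RNA in these values was not tested. The 2 plasma cell libraries, for comparison, had mitochondrial shares of 0.0556% and 0.139% and ratios of 0.251 and 0.444.

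**Figure D4:**
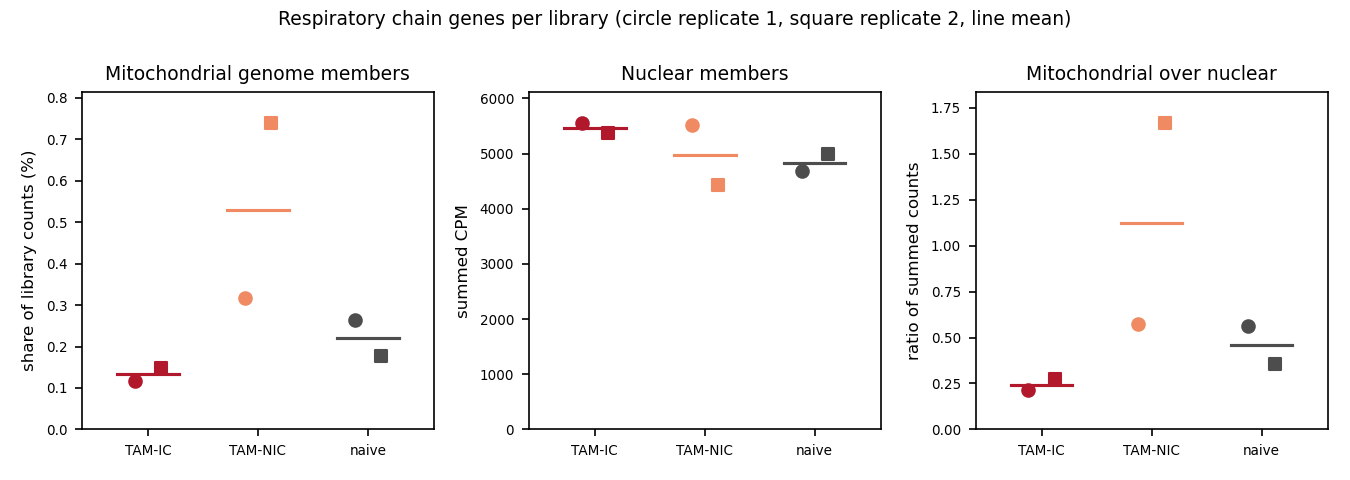
Share of counts on mitochondrial genome members (left), summed CPM of nuclear members (middle) and ratio of the 2 sums (right) in each macrophage library, with group means as lines. TAM-IC is lowest at left and right, at 0.118% and 0.147% and at ratios of 0.212 and 0.275, while the nuclear sums all lie between 4424 and 5559 CPM.

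Across the nuclear members the medians over naive were positive in both TAM groups. For TAM-IC over naive, 71 of the 83 tested had a positive log2 fold change and 12 a negative one, with a median of 0.48, beside a median over all genes of 0.00. Both libraries of TAM-IC lay above both naive libraries for 67 of the 83, against 30.3% of all genes, and below them for 8, against 29.1%. Scaled to library totals, 57 of the 83 lay above, or 68.7%, against 23.0% of all genes. By complex the medians were 0.50 for complex I, 0.64 for complex III, 0.47 for complex IV and 0.28 for complex V. Genes of the cytosolic ribosome, a list set beside them for comparison, had a median of 0.59, with 63 of 78 tested genes positive. edgeR called 0 of them, and 12 had an unadjusted p under 0.05, beside 14.6% of all genes. DESeq2 called 6 higher and 0 lower, beside 7.84% of all genes in either direction. The sequence that these ribosomal genes share with other genes was not measured. Neutrophil marker sums, which were lower in 1 of the 2 libraries of TAM-IC than in either naive library, and resident macrophage marker sums, lower in both, differed between these groups too. Monocyte markers summed to 3183 and 2148 CPM in TAM-IC, against 988 and 1849 in naive macrophages, eosinophil markers to 840 and 1178 against 1666 and 2220, and B cell markers to 112 and 87.9 against 393 and 486. The part of these cell types in the nuclear values was not tested.

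For TAM-IC over TAM-NIC the nuclear median was 0.19, with 60 of 83 positive. Of the 83, 29 lay above without overlap (24.2% of all genes) and 10 below (22.1% of all genes). Without replicate 2 of TAM-NIC the median was -0.02 and 39 of 83 were positive. For TAM-NIC over naive the median was 0.27, with 73 of 83 positive, beside 0.06 over all genes, and 29 members above (22.0% of all genes) and 6 below (22.7%) without overlap. Without replicate 1 of TAM-NIC that median was -0.03 and 36 were positive. Scaled to library totals, 57 of 83 were positive, and 16 of 83 lay above without overlap, or 19.3%, near the 16.6% of all genes.

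**Figure D5:**
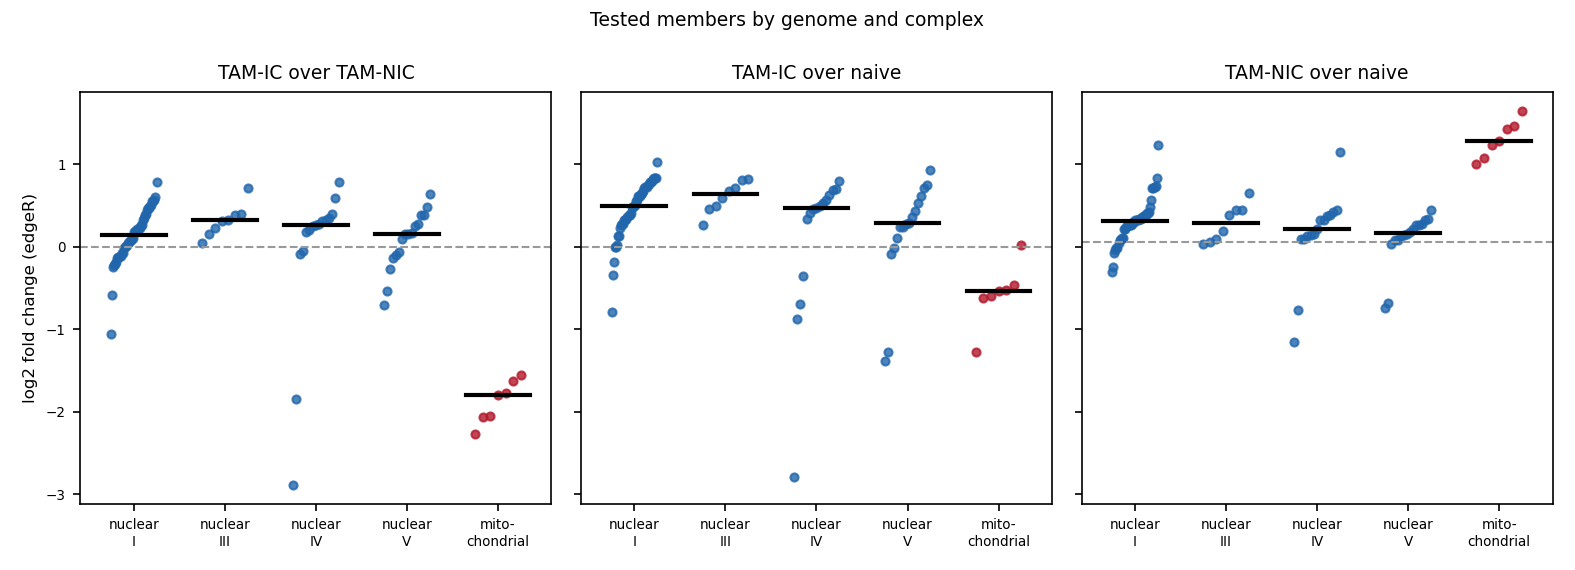
edgeR log2 fold change of every tested member, by genome and complex, in the 3 comparisons; black lines are group medians and the dashed line the median over all 15522 genes. Nuclear complexes have medians of 0.14 to 0.64, while the mitochondrial members have medians of -1.80, -0.54 and 1.28 from left to right.

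Complex I, NADH dehydrogenase, takes electrons from NADH into its iron-sulphur clusters through the nuclear core subunits. Ndufs1, the largest of these, had 91.1 and 94.5 CPM in TAM-IC, 90.0 and 90.7 CPM in TAM-NIC and 114 and 121 CPM in naive macrophages. Both TAM groups lay below naive, at log2 fold changes of -0.18 ± 0.21 and -0.24 ± 0.21 (SE, adjusted p = 0.725 and 0.670). Ndufv1, which binds NADH, had 98.1 and 105 CPM in TAM-IC, 84.9 and 139 CPM in TAM-NIC and 96.3 and 91.5 CPM in naive macrophages. Ndufs7, near the ubiquinone site, had a log2 fold change over naive of 0.28 ± 0.27 (SE, adjusted p = 0.661) in TAM-IC, about the size of its standard error.

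Accessory subunits differed by more. Ndufa1, a small membrane subunit on chromosome X (37187588 to 37191163), had 27.1 and 28.9 CPM in TAM-IC, 22.2 and 43.7 CPM in TAM-NIC and 15.5 and 15.1 CPM in naive macrophages. All 4 TAM libraries lay above naive, with log2 fold changes of 1.03 ± 0.35 for TAM-IC and 1.24 ± 0.35 for TAM-NIC (SE, adjusted p = 0.287 and 0.237). Ndufb9, an accessory subunit of the membrane arm on chromosome 15 (58933756 to 58939488), had 63.5 and 64.7 CPM in TAM-IC, 52.2 and 62.1 CPM in TAM-NIC and 41.8 and 42.9 CPM in naive macrophages. Its log2 fold change of 0.76 ± 0.22 for TAM-IC over naive had an adjusted p of 0.230 in edgeR and was called in DESeq2. Ndufb7 had 60.3 and 59.6 CPM in TAM-IC, 43.7 and 25.9 CPM in TAM-NIC and 36.3 and 43.3 CPM in naive macrophages, with TAM-IC above both other groups.

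Ndufab1, the mitochondrial acyl carrier protein that is both a complex I subunit and part of mitochondrial fatty acid synthesis, went the other way. It had 7.21 and 6.55 CPM in TAM-IC, 11.0 and 18.2 CPM in TAM-NIC and 12.9 and 13.5 CPM in naive macrophages. TAM-IC lay below both other groups, with log2 fold changes of -1.06 ± 0.35 and -0.79 ± 0.35 (SE, adjusted p = 0.230 and 0.372). The 8 Ndufaf assembly factors, which help to build complex I without remaining in it, had medians of 0.05 between the TAM groups, 0.33 for TAM-IC over naive and 0.24 for TAM-NIC over naive, with adjusted p of 0.305 or more. Ndufaf4 had the lowest value between the TAM groups, at -0.59 ± 0.25 (SE), with both libraries of TAM-IC below both of TAM-NIC.

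Complex III, the cytochrome bc1 complex, had all 8 nuclear members higher in both libraries of TAM-IC than in either naive library on the TMM scale. The same held for 30.3% of all genes. Uqcrfs1, the Rieske iron-sulphur protein that takes electrons from ubiquinol (chromosome 13, 30540308 to 30545362), had 97.3 and 125 CPM in TAM-IC, 83.8 and 90.5 CPM in TAM-NIC and 68.8 and 71.9 CPM in naive macrophages. The groups followed that order without overlap, and the log2 fold change over naive was 0.82 ± 0.24 (SE, adjusted p = 0.241) for TAM-IC and 0.45 ± 0.24 (adjusted p = 0.444) for TAM-NIC. Uqcrh, the hinge protein at the cytochrome c side, had 28.5 and 29.6 CPM in TAM-IC, 21.6 and 14.3 CPM in TAM-NIC and 17.9 and 19.2 CPM in naive macrophages. Uqcrc1, a large core protein, had 398 and 395 CPM in TAM-IC, 358 and 249 CPM in TAM-NIC and 291 and 351 CPM in naive macrophages. Uqcrq had a log2 fold change of 0.71 ± 0.25 (SE, adjusted p = 0.304) and Uqcrb, with 43.2% of its windows shared, one of 0.68 ± 0.36 (adjusted p = 0.428) for TAM-IC over naive. The mitochondrial member of the same complex, mt-Cytb, had -0.62 ± 0.49 in that comparison, so nuclear and mitochondrial genes of complex III had opposite signs.

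Complex IV, cytochrome c oxidase, hands electrons to oxygen. Cox4i1, its regulatory subunit in most tissues, had 160 and 157 CPM in TAM-IC, 165 and 113 CPM in TAM-NIC and 120 and 117 CPM in naive macrophages, a log2 fold change of 0.57 ± 0.28 (SE, adjusted p = 0.400) for TAM-IC over naive. Cox5a and Cox5b, which sit beside it, had 0.34 ± 0.45 and 0.46 ± 0.26. Among the subunits of the outer ring, Cox6b1 had 0.70 ± 0.27 (adjusted p = 0.324), Cox6a1 0.80 ± 0.34 (adjusted p = 0.357) and Cox7a2 0.63 ± 0.22 (adjusted p = 0.299) in the same comparison. Cox8a and Ndufa4, an oxidase subunit despite its symbol, had 0.41 ± 0.31 and 0.53 ± 0.34. Cox7a2l, classed as a factor for supercomplexes of complexes III and IV, had 23.0 and 29.2 CPM in TAM-IC, 20.2 and 14.8 CPM in TAM-NIC and 18.3 and 17.8 CPM in naive macrophages, with TAM-IC above the other groups. Its function in these B6 mice was not tested.

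The isoforms tested were Cox4i2, Cox6a2 and Cox6b2. For TAM-IC over naive their log2 fold changes were negative, and those of Cox4i1, Cox6a1 and Cox6b1 positive. The other comparisons were mixed. Between the TAM groups Cox6b2 and Cox6b1 were both positive. For TAM-NIC over naive so were Cox4i2 and Cox4i1, and Cox6a2 and Cox6a1. Cox4i2, the isoform of Cox4 known for expression in lung and oxygen-sensing cells (chromosome 2, 152754173 to 152765037), had 7 and 9 counts in TAM-IC, 43 and 56 in TAM-NIC and 92 and 27 in naive macrophages. These are 0.157 and 0.214 CPM, 1.04 and 1.80 CPM, and 1.96 and 0.935 CPM. TAM-IC lay below the other groups, at log2 fold changes of -2.89 ± 0.84 over TAM-NIC and -2.79 ± 0.84 over naive (SE, adjusted p = 0.205 and 0.248). It had the largest nuclear change in both comparisons, and DESeq2 called it in both. Cox4i2 made up 0.0984% and 0.136% of Cox4 counts in TAM-IC, 0.626% and 1.57% in TAM-NIC and 1.61% and 0.791% in naive macrophages, so Cox4i1 was the main form throughout.

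Cox6a2, the heart and skeletal muscle form of Cox6a, had 1.82 and 0.617 CPM in TAM-IC, 4.45 and 4.28 CPM in TAM-NIC and 2.90 and 1.42 CPM in naive macrophages, with a log2 fold change of -1.84 ± 0.74 (SE, adjusted p = 0.289) between the TAM groups. On the other strand Itgad is annotated over the Cox6a2 locus and Shmt2 over that of Ndufa4l2. Reads from such partners cannot be told apart, and their part in these values was not tested. Cox6b2, the testis form of Cox6b, had 2.09 and 2.25 CPM in TAM-IC, 0.798 and 1.77 CPM in TAM-NIC and 2.97 and 3.25 CPM in naive macrophages. Cox7b2 and Cox8c had 0 counts in the 6 macrophage libraries, and Cox8b, a muscle form, had 1 count in 1 of them. Cox7a1, the muscle form of Cox7a, had 0 to 9 counts a library. Ndufa4l2, a hypoxia-inducible relative of Ndufa4, had 0 and 2 counts in TAM-IC, 5 and 51 in TAM-NIC and 3 and 1 in naive macrophages. The plasma cell libraries had 160 and 44. Its high macrophage value came from the library with the raised plasma cell markers.

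Complex V, ATP synthase, had the smallest nuclear shift over naive. Atp5b, the catalytic beta subunit, was the most abundant nuclear member per kb and had 943 and 844 CPM in TAM-IC, 1006 and 979 CPM in TAM-NIC and 940 and 1065 CPM in naive macrophages. Its log2 fold change was -0.01 ± 0.32 for TAM-IC over naive and 0.13 ± 0.32 for TAM-NIC over naive (SE, adjusted p = 0.991 and 0.900). The alpha subunit gene Atp5a1 had 782 and 760 CPM in TAM-IC, 795 and 595 CPM in TAM-NIC and 710 and 747 CPM in naive macrophages. The 3 genes of the c ring differed in level: Atp5g3 had 90.7 to 105 CPM in all 6 libraries, Atp5g1 1.23 to 2.08 CPM and Atp5g2 0.119 to 0.555 CPM. Since Atp5g2 shares all its windows with other genes, its level is uncertain.

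Atp5e, the epsilon subunit of the central stalk, had 29.6 and 32.0 CPM in TAM-IC, 27.0 and 17.4 CPM in TAM-NIC and 20.1 and 20.7 CPM in naive macrophages, a log2 fold change of 0.75 ± 0.30 (SE, adjusted p = 0.337) for TAM-IC over naive. Atp5c1, the gamma subunit that turns within the catalytic head, had 0.53 ± 0.26 and Atp5o, on the outer stalk, 0.61 ± 0.27 in that comparison. Atp5s, known as coupling factor B (chromosome 12, 69724950 to 69744660), had 4.61 and 3.51 CPM in TAM-IC, 4.74 and 7.21 CPM in TAM-NIC and 9.24 and 12.7 CPM in naive macrophages. Both TAM groups lay below naive, and the log2 fold change for TAM-IC was -1.28 ± 0.43 (SE, adjusted p = 0.287), which DESeq2 called.

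Other mitochondrial genes were read through lists that were chosen with earlier results of these data known. edgeR called 0 genes of every list in the 3 comparisons. In the mitochondrial lists 0 to 7 genes a list had an unadjusted p under 0.05, beside 14.6% to 17.1% of all genes. DESeq2 called 0 to 3 genes a list in either direction, beside 7.84% to 10.1% of all genes. The 78 mitochondrial ribosome genes, which translate the mitochondrial members, had a median of 0.18 for TAM-IC over TAM-NIC. It was 0.33 for TAM-IC over naive (66 of 78 positive) and 0.21 for TAM-NIC over naive (56 positive). In the last comparison DESeq2 called 3 of the 78 higher and 0 lower, beside 8.03% of all genes in either direction. Mrpl52 had the smallest p of the 78 for TAM-IC over naive, with 15.3 and 11.2 CPM in TAM-IC, 16.8 and 12.5 CPM in TAM-NIC and 7.53 and 5.47 CPM in naive macrophages. Complex II, the 4 succinate dehydrogenase genes, had medians of 0.03, 0.21 and 0.14 in the 3 comparisons in that order. The 16 citric acid cycle genes had -0.01, 0.01 and -0.04, and the 15 electron carrier genes -0.18, -0.07 and 0.06. Of 30 tested assembly factors outside the Ndufaf genes the medians were 0.03, 0.13 and 0.07. Coa7, which supports complex IV assembly, had 12.4 and 11.3 CPM in TAM-IC, 14.4 and 14.0 CPM in TAM-NIC and 7.00 and 5.95 CPM in naive macrophages.

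The machinery that makes and handles mitochondrial RNA gave no common direction. Genes for transcription and replication of mitochondrial DNA had medians of 0.27, -0.14 and -0.11 over 17 genes, and Tfam, the packaging and transcription factor, had 0.59 ± 0.23 (SE, adjusted p = 0.331) for TAM-IC over naive. Top1mt, a mitochondrial topoisomerase, had -1.21 ± 0.44 (SE, adjusted p = 0.255) between the TAM groups. Mitochondrial RNA processing and stability genes had medians of -0.05, -0.06 and 0.11 over 19 genes. Rexo2, an exonuclease for short RNAs in mitochondria, had 70.1 and 59.4 CPM in TAM-IC, 138 and 294 CPM in TAM-NIC and 80.3 and 70.2 CPM in naive macrophages. Its log2 fold change was -1.71 ± 0.38 (SE, adjusted p = 0.166) between the TAM groups and 1.65 ± 0.38 (adjusted p = 0.219) for TAM-NIC over naive, and its highest library was again replicate 2 of TAM-NIC.

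Biogenesis regulators had medians of -0.06, 0.26 and 0.10 over 13 genes. Ppargc1b, a coactivator of mitochondrial biogenesis, had 7.24 and 3.94 CPM in TAM-IC, 13.1 and 13.7 CPM in TAM-NIC and 16.4 and 11.1 CPM in naive macrophages. Nfe2l2, the regulator of the oxidative stress response, had 489 and 462 CPM in TAM-IC, 546 and 496 CPM in TAM-NIC and 211 and 258 CPM in naive macrophages, and all 4 TAM libraries lay above naive. Myc had 123 and 66.4 CPM in TAM-IC, 165 and 2801 CPM in TAM-NIC and 155 and 208 CPM in naive macrophages. The value of 2801 CPM stood in the library with the raised plasma cell markers, and the tumour carries a MYC transgene; its part in the value was not tested.

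Import and porin genes had medians of -0.13, 0.13 and 0.23 over 18 genes. Timm17a, a channel component of the inner membrane translocase, had log2 fold changes over naive of 0.67 ± 0.23 in TAM-IC and 0.90 ± 0.23 in TAM-NIC (SE, adjusted p = 0.298 and 0.229). The mitophagy and uncoupling list, of 9 genes, had medians of 0.10, 0.05 and -0.13. Within it Ucp3, an uncoupling protein, had 0.405 and 0.570 CPM in TAM-IC, 5.49 and 18.3 CPM in TAM-NIC and 23.1 and 10.4 CPM in naive macrophages. TAM-IC lay far below both other groups, at log2 fold changes of -4.57 ± 0.79 and -4.94 ± 0.80 (SE, adjusted p = 0.133 and 0.0944), neither past the threshold. Bnip3l, a mitophagy receptor of the outer membrane, had 125 and 207 CPM in TAM-IC, 71.1 and 36.9 CPM in TAM-NIC and 64.2 and 92.5 CPM in naive macrophages, with TAM-IC highest.

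Promoters of nuclear respiratory genes are known for binding sites of NRF1 and of ETS family factors such as GABP. RefSeq promoters (GRCm38.p6, 250 bases before to 50 after the start) were matched for 71 of the 88 nuclear members. The NRF1 core GCATGCGC, or GCGCATGC on the other strand, was present in 11 of them, or 15.5%, and in 3.05% of the promoters of 27025 genes. The ETS core CCGGAAG, or CTTCCGG, was present in 16, or 22.5%, and in 9.93% of all genes. Both motifs occurred in the promoters of Atp5k, Cox6a1, Atp5l and Uqcr11. The 150 bases before the start of Atp5k (chr5:108434400-108434549, minus strand), which encodes a membrane subunit of ATP synthase, hold the 2 NRF1 spellings overlapping at 50 and 48 bases before the start. Those of Cox6a1 (chr5:115348959-115349108, minus strand) hold the ETS core 16 bases before it, and its NRF1 core lies upstream of the stretch shown. They are given as examples of these letters, in capitals, in members that have both motifs.
Atp5k: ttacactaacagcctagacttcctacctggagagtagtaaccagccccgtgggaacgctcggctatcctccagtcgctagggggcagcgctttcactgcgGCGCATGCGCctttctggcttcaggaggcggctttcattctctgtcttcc
Cox6a1: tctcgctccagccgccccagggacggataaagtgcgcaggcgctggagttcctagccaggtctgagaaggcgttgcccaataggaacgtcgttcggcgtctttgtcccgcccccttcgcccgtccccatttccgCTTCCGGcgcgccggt
Among tested members with a promoter, the 23 with either motif had a median log2 fold change of 0.59 for TAM-IC over naive, and the 45 with neither had 0.49. Between the TAM groups these medians were 0.28 and 0.17, and for TAM-NIC over naive 0.27 and 0.27. A match is a description of the letters and not of binding.

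The plasma cell libraries come from another table and were not tested. In them immunoglobulin genes took 67.3% and 70.4% of counts, and nuclear members summed to 2217 and 3132 CPM. Scaled to the counts outside immunoglobulin genes the sums were 6774 and 10586, against 4705 to 5569 in the 6 macrophage libraries, so the direction against macrophages turns with the denominator. Cox5a had 11.4 and 27.5 CPM and Ndufs1 27.6 and 19.4 CPM in plasma cells. Ndufa1 had 31.6 and 74.6 CPM there, and Ndufa4 24.8 and 101 CPM, so replicate 2 held the higher value for each of these but Ndufs1. Per kb of transcript Atp5b led the nuclear members in plasma cells too, with a mean of 210 CPM per kb, and mt-Cytb the mitochondrial ones with 299 CPM per kb.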

How the data were processed

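RNA of 6 macrophage and 2 plasma cell samples was sequenced from SMART-Seq v4 libraries, per the labels' protocols. The deposited values are the authors' whole-number read counts per gene, in 1 table of macrophages and 1 of plasma cells. Tools and builds named in the submitters' processing notes are STAR, featureCounts and DESeq2 1.26, and mm10 and GRCm38, with no role or order. Columns were matched to samples by their labels, and 0 columns were left without a sample.

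Identifiers were matched to GENCODE M21 (47224 of 47643). Coordinates count from 1. edgeR 4.0.16 (R 4.3.3) fitted 1 quasi-likelihood model to these 6 libraries, using TMM factors and filterByExpr, leaving 15522 genes and 3 residual degrees of freedom, with Benjamini-Hochberg adjustment over all genes and a threshold of 0.05. CPM uses the library total. Exact permutation tests used scipy. Alternatives were DESeq2 1.42.0, limma-voom (limma 3.58.1), 3 other scalings, 2 other filters, bias-adjusted dispersions, a replicate block and leaving out each library. Scripts were tested on simulated data. Members, lists and tests were chosen with earlier results of these data known. Named genes were the measured mitochondrial members, per complex the 2 nuclear members with the smallest p in each comparison, a set of core subunits and isoforms, and up to 2 per list with the smallest p. Ndufaf4, Atp5l and the promoter examples were chosen after their values were seen. Counting error alone limits a count of 0 to 3 counts. One core subunit is counted among the members but not reported by name here.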

Additional observations from a re-analysis of the deposited data

How the results depend on the processing

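Genes called moved with the filter and the tool. For TAM-IC over TAM-NIC, where edgeR called 0, there were 1871 without a filter, 1569 in DESeq2, 22 with bias-adjusted dispersions and 59 with the replicate block. For TAM-IC over naive, with 34 calls, there were 22 with RLE size factors, 18 with library totals, 0 with TMM factors that left out immunoglobulin and mitochondrial counts, 1437 without a filter, 1217 in DESeq2, 0 in limma-voom, 56 with bias-adjusted dispersions and 187 with the replicate block. For TAM-NIC over naive, with 0 calls, there were 1548 without a filter and 1247 in DESeq2. Leaving out 1 library gave 0 to 1510, 0 to 534 and 0 to 477 calls, the highest each time without TAM-NIC replicate 1, and 0 for TAM-IC over naive without any 1 library of those groups. Members called were 0 in edgeR, and became 7 without a filter, 8 in DESeq2 and 0 to 8 on leaving out a library (8 without TAM-NIC replicate 1) between the TAM groups, 3 in DESeq2 for TAM-IC over naive, and 4 without a filter, 1 in DESeq2 and 0 to 1 on leaving out a library (1 without TAM-NIC replicate 1) for TAM-NIC over naive.

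Leaving out 1 library gave nuclear medians of -0.02 to 0.46 between the TAM groups and -0.03 to 0.47 for TAM-NIC over naive. Mitochondrial medians kept their sign, at -2.18 to -1.29 and 0.73 to 1.63. The log2 difference of the mitochondrial share ran from -2.49 to -1.26 and 0.56 to 1.78, and that of the ratio from -2.79 to -1.25 and 0.36 to 1.91. The nuclear sum ran from -0.01 to 0.30 and -0.13 to 0.19. With TMM-scaled totals it was 0.33 for TAM-IC over naive and 0.17 for TAM-NIC over naive. The cause was not tested. Library totals moved the median of all genes to -0.15 for TAM-IC over naive.

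Same-numbered TAM libraries correlated at 0.152 in their deviations, but sex-linked transcripts differ within number 2, so the numbers were not taken as pairs. With the replicate block 0 members were called. Over the named genes and all alternatives, 31 values passed the threshold, each with its sign kept, and 73 others moved by more than their standard error. Of 67 sign changes, 12 came between the TAM groups without TAM-NIC replicate 2, 12 for TAM-NIC over naive without TAM-NIC replicate 1 and 9 with library totals, and 17 for TAM-IC over naive over all settings.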
